A study of Mus musculus with 768 samples.

Results

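The cells described here are muscle stem cells split by how much of their RNA sequence fell on ribosomal protein genes. For each cell, the share of all its reads that fell on 83 ribosomal protein genes was computed (51 *Rpl* and *Rplp* genes of the large subunit and 32 *Rps* genes of the small subunit, without pseudogene names), the cells of each mouse were ranked by it and cut into 3 parts, and the top and the bottom part are called the high group and the low group. The members were therefore selected on a measured value, and the ribosomal protein genes themselves are only described. The 6 mice gave 123 cells in the high group and 123 in the low group, 246 of 377 cells in all. The high and the low group each held 20 cells of mouse Y4, 14 of Y5, 24 of Y7, 25 of Y8, 18 of O1 and 22 of O5. All cells came from the tibialis anterior, a muscle of the lower leg, of *Tg:Pax7-nGFP* mice, in which the *Pax7* promoter drives a nuclear green fluorescent protein, and were sorted as viable cells in the upper range of that fluorescence after the digested muscle had been frozen and thawed. The labels give Y4, Y5, Y7 and Y8 an age of 2 months and O1 and O5 an age of 24 months, and name no treatment. The methods give the background of the mice as C57BL/6;DBA2 F1/JRj. The question was which other genes differ between cells of the same mouse at the extremes of ribosomal protein reads, with the mouse as the paired replicate.

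Ribosomes are built from ribosomal RNA and a fixed set of ribosomal proteins. The mRNAs of these proteins, and those of translation elongation factors, carry a pyrimidine tract at their 5′ end (the TOP motif) that couples their translation to growth signals through mTORC1 and the RNA-binding protein LARP1. Muscle stem cells lie quiescent beside the fibre, are small and make little protein until injury activates them.

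The counts were the reads of full-length cDNA of single cells. Molecules carried no identifiers, and several reads can stem from 1 molecule. A cell had between 101755 and 626142 reads on genes, and the sum of a group in one mouse held between 2613758 and 9265850 reads on genes outside the share. Y4, Y5 and Y8 were sequenced on lane 3, and Y7, O1 and O5 on lane 2. The 12 muscle stem cell markers were read in between 14.1% (*Chrdl2*) and 99.7% (*Sdc4*) of the cells, with *Pax7* in 89.9%, *Des* in 90.7%, *Myf5* in 72.4% and *Calcr* in 36.9%. Fibre, endothelial, immune, glial and red cell markers summed to at most 90.7 CPM (reads scaled to 1000000 reads on genes outside the share) in any group, and *Ckm*, *Cdh5*, *Kdr*, *Sox10* and *Hba-a1* had no read in either group. The fibro-adipogenic markers summed to 346 to 1059 CPM in the high groups and 326 to 1177 CPM in the low groups, while *Pdgfra*, *Lum* and *Pi16* had no read and *Dpt* was read in 76.9% of the cells. Pericyte and smooth muscle markers summed to 259 to 865 CPM and 459 to 984 CPM, with *Myh11* at 0 and *Notch3* read in 70.0% of the cells.

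Ribosomal protein reads made up between 0.921% and 10.7% of a cell's reads. The median share in the high and in the low group was 6.23% and 3.09% in Y4, 5.94% and 3.13% in Y5, 7.33% and 4.15% in Y7, then 4.84% and 2.63% in Y8, 5.75% and 2.41% in O1, and finally 7.39% and 3.55% in O5. The level differed between mice, so that the low group of Y7 reached up to 5.00% while the high group of Y8 began at 4.18%. The shares formed a continuum with no gap at the cuts. In Y4 the last cell inside the high group had 5.07% and the first outside it 5.05%, and in O5 these were 6.56% and 6.52%. At the lower cut, the last cell inside had 3.79% in Y4 and 4.39% in O5, and the first outside 3.83% and 4.43%. The mouse means of the 2 ages overlapped. Both old mice were sequenced on lane 2, where Y7 was the only young mouse, so age and lane cannot be told apart. The mean share over all cells was 4.71% ± 1.03 (SD, n = 2) in old mice and 4.66% ± 0.790 (SD, n = 4) in young mice (p = 1.0, exact two-sided permutation test, which cannot go below 0.133 here), and both the highest and the lowest mouse mean, 5.71% in Y7 and 3.796% in Y8, were young.

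**Figure D1:**
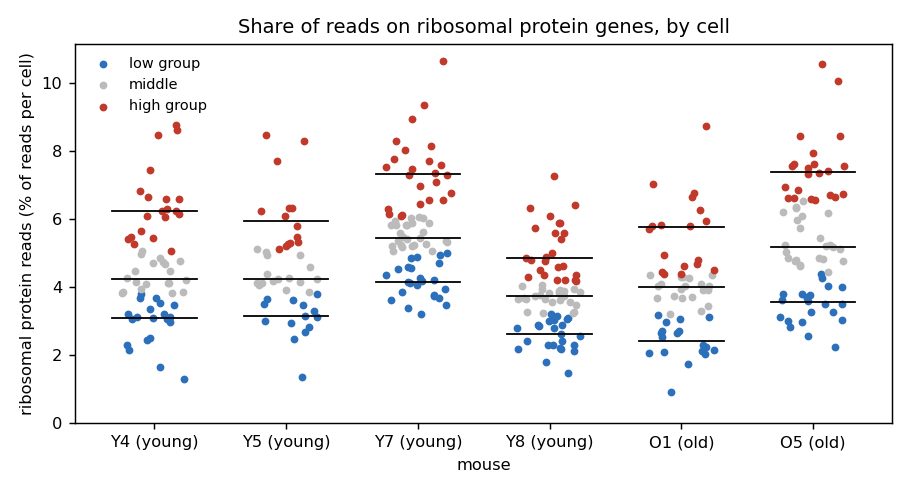
Share of reads on ribosomal protein genes (%, vertical axis) in each cell of 6 mice (horizontal axis), coloured by part, with the median of each part as a line. In every mouse the cells spread without a gap, from 0.921% at the lowest in O1 to 10.7% at the highest in Y7.

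The excess was spread over nearly the whole set. Of the 83 genes, 78 had a read in at least 50% of the cells, and 71 of these 78 were higher in the high group of all 6 mice, as the choice of the cells leads to. Their log2 ratio (CPM + 1, mean of 6 mice) had a median of 1.03. The largest were *Rps23* (1.57 ± 0.47 SD), *Rps24* (1.46 ± 0.25) and *Rpl36a* (1.42 ± 0.65). *Rps4x* (6.31% of all ribosomal protein reads), *Rplp0* (5.94%) and *Rpl4* (5.69%) carried most reads, with log2 ratios of 1.02 ± 0.39, 1.10 ± 0.20 and 0.90 ± 0.48. At the other end stood *Rpl22* (0.01 ± 1.12), its paralogue *Rpl22l1* (0.02 ± 0.67) and *Rpl21* (0.39 ± 2.30). *Rpl22* was higher in the high group in 2 of 6 mice and was read in 79.6% of the cells, *Rpl22l1* in 2 of 6 mice and 87.5% of the cells. Among other paralogues, *Rps27l*, a p53 target, had a ratio of 0.60 ± 0.88, and the tissue-restricted *Rpl3l*, *Rpl10l* and *Rpl39l* had no read in any of 377 cells, which for counting error alone allows up to 3 reads in all.

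**Figure D2:**
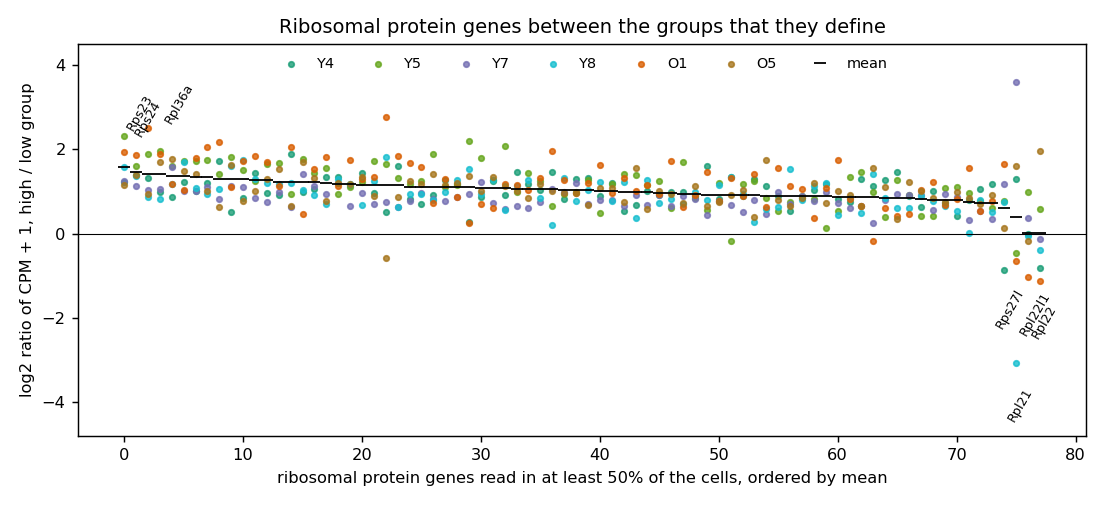
Log2 ratio of CPM + 1 between the high and the low group (vertical axis) for the 78 ribosomal protein genes read in at least 50% of the cells, ordered by their mean; points are the 6 mice and bars the mean. Nearly all genes lie above 0 in every mouse, while *Rpl22* and *Rpl22l1* at the right end average 0.01 and 0.02.

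To compare ribosomal protein genes not counted in the share itself, the parts were cut again by the *Rpl* and *Rplp* share alone and the *Rps* genes compared, and the reverse. The denominator of these shares was still all reads of the cell, and levels were scaled to the reads on other genes. Cut and levels are thus not independent, which limits all counts of this paragraph. All 31 tested *Rps* genes were higher in cells with a high *Rpl* share, with a median log2 fold change of 0.95 (range 0.57 to 1.42). The median was -0.07 over the other genes, leaving out those found to share sequence or position with them. By edgeR's unadjusted p under 0.05, 28 of the 31 passed, where 1.4% of all genes tested passed in that direction. None passed the adjusted threshold of 0.05 (adjusted p = 0.207 for *Rps4x* and *Rps3*), while DESeq2 called 20 of them. In the reverse cut all 48 tested *Rpl* and *Rplp* genes had a positive fold change, with a median of 0.90, and 34 passed the unadjusted p, beside 1.5% of all genes. The lowest adjusted p was 0.226 for *Rpl13*, *Rpl32*, *Rplp0* and *Rpl7*, and DESeq2 called 22. *Rpl22l1* (0.03 ± 0.38 SE) and *Rpl22* (0.20 ± 0.43 SE) had the smallest fold changes of the 48 in that cut too. Within a mouse, the *Rpl* and the *Rps* share of cells went together, with a Spearman rho between 0.78 and 0.89 (over the 44 to 75 cells of a mouse, which share the total of the cell as denominator).

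Cells of the high group were also shallower, and this touches every comparison that follows. The median number of reads on other genes was lower in the high group in 6 of 6 mice. In the order Y4, Y5, Y7, Y8, O1 and O5 it was 228399, 186764, 194018, 308867, 165350 and 204450 reads in the high group and 272363, 223749, 292490, 358262, 259075 and 327620 in the low group. The mean log2 difference was -0.44 ± 0.22 (SD, n = 6 mice). These reads are part of the denominator of the share by which the cells were ranked, so the difference is given as a description with no test. Cells of the high group had 1753 ± 277 other genes detected (SD of the mouse medians, n = 6) and those of the low group 1931 ± 289, a difference of -178 ± 179 that was in the same direction in 5 of 6 mice and did not pass (p = 0.0938, exact two-sided permutation test). In Y5 the order was the other way, with 2059 genes in the high group and 1946 in the low group. Thinned to 50000 reads on other genes per cell, the difference was -104 ± 160 genes (p = 0.25, exact permutation test). Between cells with neighbouring total reads it was 27.6 genes. The number of genes detected depends on reads that the ranking used, so its tests are not independent of the ranking either.

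**Figure D3:**
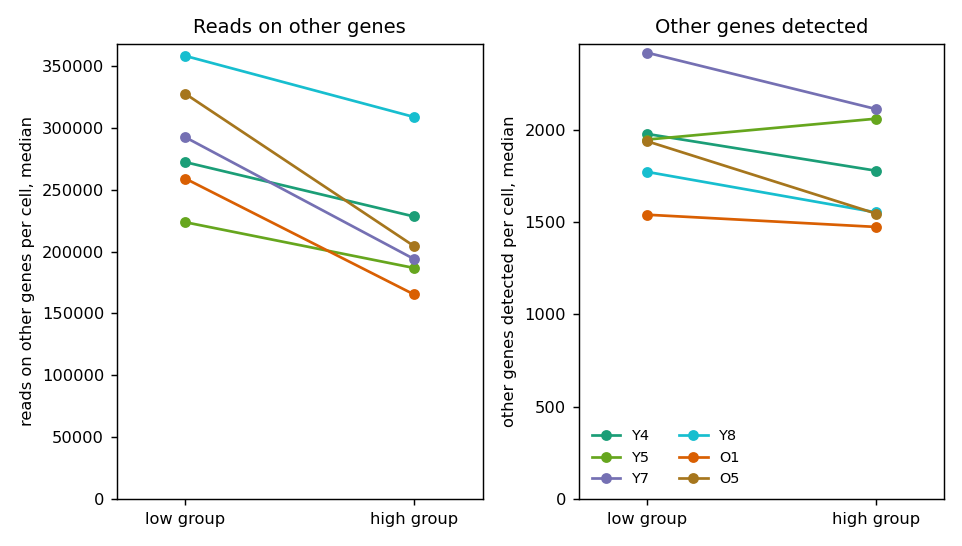
Median reads on other genes per cell (left) and median number of other genes detected per cell (right) in the low and the high group, one line per mouse. Reads fall from the low to the high group in all 6 mice, genes detected in 5 of 6.

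Across 8539 tested genes, edgeR's quasi-likelihood test on the sums of each group, with the mouse as block and library sizes from genes outside the share, called 0 (0%) at an adjusted p under 0.05. At an unadjusted p under 0.05, 99 genes were higher in the high group (1.16%) and 168 lower (1.97%). Summed levels were higher in all 6 mice for 185 genes (2.17%) and lower in all 6 for 189 (2.21%). With DESeq2, 234 genes (2.74%) were called, and 145 of them had a read in fewer than 10% of the cells and 148 were not on one side in all mice. Most tested genes were read in few cells, so the test was also run over the 695 genes that at least 50% of all cells had a read of, a limit chosen after the first result had been seen. There, 43 genes were called higher (6.19%) and 8 lower (1.15%). Of these 51, 22 were pseudogenes or copies of ribosomal protein genes or overlapped one, so that their reads cannot be told apart from those of the share, and 10 more had model or clone names. The other 19 were 12 named genes that were higher and 7 that were lower, and most are described in the paragraphs that follow. Of the 19, *Snrpg*, a core protein of the spliceosome (median 21.6 CPM in the low and 49.5 CPM in the high groups), *Erh* (49.9 and 127 CPM) and *Wdr89* (20.8 and 38.7 CPM) were higher in 6 of 6 mice, and over all 8539 genes their unadjusted p were 0.314, 0.0693 and 0.449 (edgeR). Between cells with neighbouring total reads, the log2 fold change of *Snrpg* was 0.027 instead of 1.03. This count rests on the pairing and on each mouse. It was 0 without the mouse block, 2 without Y4 and 17 to 27 without any other single mouse, and 2 when the cells of a mouse were ordered by genes detected and the highest and lowest share taken within each run of 3 neighbours. The mean difference in share within such runs cannot exceed that of the cut into 3 parts, and is not given here. Fold changes from runs can thus differ from the main ones through the share contrast as well as through the matching. Leaving pseudogene and model names out of the 695 left 610 genes and 5 calls: *Dnajb1*, *Cp* and *Rnd3* lower, *Rpsa* and *Eef1a1* higher. The other named genes called among the 695 did not pass over the 610. Their calls thus depend on the genes fitted and adjusted with them. The 695 include the 22 calls that resemble or overlap ribosomal protein genes.

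Among genes of translation that the share did not include, ribosomal proteins and elongation factors had the most members with higher levels in these cells. None of them passed edgeR's adjustment over all 8539 genes, while limma on mean log2 values called *Rpsa*. Of 4 ribosomal protein genes whose names fall outside the rule, all 4 were higher in 6 of 6 mice and 3 passed the unadjusted p. Over all genes 2.17% were higher in all 6 mice and 1.16% passed as higher. The median log2 fold change of the 4 was 0.93, beside -0.09 over all genes tested. *Rpsa*, a protein of the small subunit (chromosome 9, from 120127766 on GRCm38), had 656, 965 and 1379 CPM as the lowest, median and highest mouse of the low group and 1173, 2119 and 2930 CPM in the high group. The ranges of the groups overlapped between mice, while every mouse had more in its high group. The fold change was 2.09 (log2 1.06 ± 0.19 SE, adjusted p = 0.595 over 8539 genes and 0.015 over the 695, edgeR). *Fau*, whose product is a ubiquitin-like protein fused to a small subunit protein, went from 210 CPM (median of mice, range 172 to 480) to 544 CPM (398 to 710), a fold change of 2.15 (adjusted p = 0.0263 over the 695 genes, edgeR). *Rpl36al*, a copy of a large subunit gene, had a log2 fold change of 0.73 ± 0.47 SE and did not pass in the smaller set (adjusted p = 0.129, edgeR).

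Of the 22 listed elongation factors and other TOP mRNAs, 19 had a positive fold change, 9 passed the unadjusted p as higher and none as lower, and 7 were higher in all 6 mice (over all genes 1.16% passed as higher and 2.17% were higher in all mice). All 9 were among the 18 members read in at least 50% of the cells. Of the 608 named genes read that often that overlap no ribosomal protein gene, 3.12% passed as higher. The median log2 fold change of the 22 was 0.68. *Eef1a1* (chromosome 9, 78478449 to 78489151), which carries aminoacyl-tRNA to the ribosome, had 6015, 7910 and 8858 CPM as lowest, median and highest mouse of the low group and 9562, 11899 and 19727 CPM in the high group. These ranges did not overlap, and the fold change was 1.60 (log2 0.68 ± 0.13 SE, adjusted p = 0.0152 over the 695 genes, edgeR). *Eef2*, which moves the ribosome along the mRNA, went from a median of 2452 to 3639 CPM, a 1.60-fold difference. *Eef1b2*, the exchange factor of eEF1A, went from 417 to 785 CPM, with no overlap of the ranges (365 to 517 and 568 to 990). *Tpt1*, the growth-related TCTP protein, went from 1333 to 2129 CPM. *Gnb2l1* (*Rack1*), a scaffold on the small subunit, went from 840 to 1705 CPM. These 4 had adjusted p of 0.0397, 0.0409, 0.0409 and 0.0292 over the 695 genes (edgeR). *Naca* (log2 0.77 ± 0.23 SE) and *Btf3* (0.73 ± 0.27 SE), the partners that bind the nascent chain at the ribosome, *Eef1g* (0.78 ± 0.24 SE) and *Eef1d* (0.96 ± 0.40 SE) made up the 9. Compared only between cells with neighbouring numbers of genes detected, the log2 fold changes were smaller but kept their sign. They were 0.82 for *Rpsa*, 0.83 for *Fau*, 0.44 for *Eef1a1*, 0.39 for *Eef2* and 0.23 for *Eef1b2*. The share contrast between such cells is at most that of the main cut, and its part in the smaller values was not tested.

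The sequence around the start of these genes is shown because the pyrimidine tract of TOP mRNAs lies at their first base, and it was present at some of these annotated starts and not at others. The 30 bases around the start annotated by RefSeq (GRCm38.p6, 15 on either side, 5′ to 3′ on the gene's strand) are given for genes of the share, for genes that were higher and for genes that were lower. Capitals mark every base of a run that opens with a C lying at most 5 bases from the annotated start and goes on with at least 5 further C or T bases.
Rplp0, of the share, chr5:115559452-115559481, plus strand: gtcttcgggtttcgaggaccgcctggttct
Rps4x, of the share, chrX:102189377-102189406, minus strand: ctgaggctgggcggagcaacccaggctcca
Rps23, of the share, chr13:90923107-90923136, plus strand: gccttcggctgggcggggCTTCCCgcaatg
Rps24, of the share, chr14:24490663-24490692, plus strand: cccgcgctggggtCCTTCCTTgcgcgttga
Rps24, of the share, another annotated start, chr14:24490738-24490767, plus strand: tccggcgccgtagccatcatggtgagtctc
Rpl22, of the share, chr4:152325711-152325740, plus strand: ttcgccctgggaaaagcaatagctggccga
Rpl22, of the share, another annotated start, chr4:152324421-152324450, plus strand: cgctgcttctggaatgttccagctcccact
Rpl22l1, of the share, chr3:28805493-28805522, plus strand: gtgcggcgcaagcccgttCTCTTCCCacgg
Rpsa, higher, chr9:120127751-120127780, plus strand: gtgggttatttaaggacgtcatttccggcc
Fau, higher, chr19:6057932-6057961, plus strand: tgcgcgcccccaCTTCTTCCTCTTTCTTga
Gnb2l1 (Rack1), higher, chr11:48800345-48800374, plus strand: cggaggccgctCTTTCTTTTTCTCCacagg
Eef1a1, higher, chr9:78481710-78481739, minus strand: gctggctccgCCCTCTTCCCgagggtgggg
Eef2, higher, chr10:81176616-81176645, plus strand: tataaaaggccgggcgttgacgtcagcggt
Eef1b2, higher, chr1:63176816-63176845, plus strand: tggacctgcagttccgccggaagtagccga
Tpt1, higher, chr14:75845241-75845270, plus strand: gtcaccgctgacgacagttccgggggagcc
Eif3k, higher, chr7:28981874-28981903, minus strand: aaaacaaccggcgctggtgctgaaagcgcc
Eif3l, higher, chr15:79075208-79075237, plus strand: gcgcggagttCTTCTTCCgCTCTCTCCCac
Cp, lower, chr3:19957039-19957068, plus strand: acacaaacagatgacattcctttgtagtta
Cp, lower, another annotated start, chr3:19957234-19957263, plus strand: cttgcttctggtttcactttattgcatcgt
Rnd3, lower, chr2:51149097-51149126, minus strand: ggagagcgtgaaacaaagcagaccgatcgg
Such a run stood near an annotated start in 11.9% of 27025 genes. Of the 78 ribosomal protein genes, 57 had a sequence in the RefSeq table and 26 of them held the run. Among the 12 genes with the smallest p that were higher, 9 had a sequence and 4 held it (*Eef1a1*, *Gnb2l1*, *Fau* and *Eif3l*), and among the 12 that were lower, 8 had one and 0 held it. Fewer than 80% of each set had a sequence, so the shares say nothing of the sets as a whole. *Rpl22l1* carried a run while its log2 ratio averaged 0.02, and *Rpsa*, *Eef2*, *Eef1b2*, *Tpt1* and *Eif3k* carried none at these annotated starts, so a match is a description of the letters and not of how a gene behaved.

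**Figure D4:**
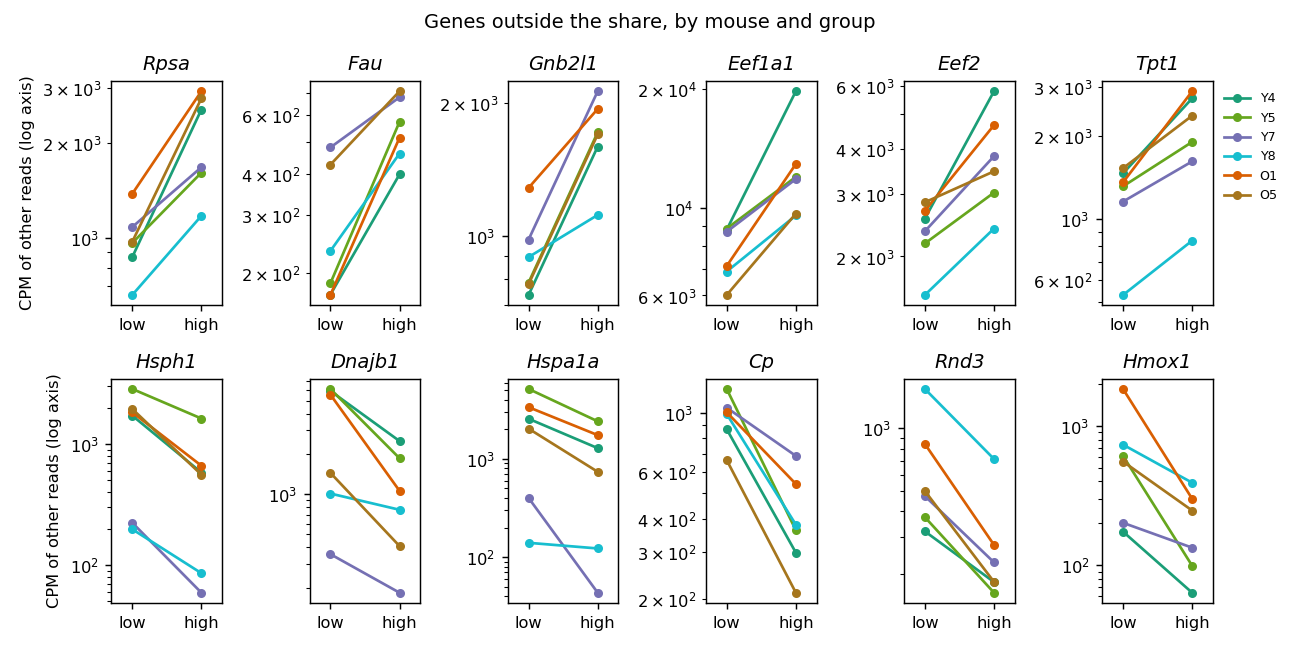
CPM of reads on genes outside the share (log axis) in the low and the high group, one line per mouse, for 12 genes. The 6 genes of the upper row have more in the high group of every mouse, the 6 genes of the lower row less.

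In other parts of the protein synthesis apparatus few members passed the test. Over all 8539 genes, 1.16% passed the unadjusted p as higher and 1.97% as lower. Of 47 tested initiation factors, 2 passed the unadjusted p as higher, 0 as lower, and the median log2 fold change was 0.20. Both belong to the eIF3 complex. *Eif3k* had a median of 168 CPM in the low and 344 CPM in the high groups (log2 1.31 ± 0.37 SE, adjusted p = 0.0388 over the 695 genes, edgeR), and *Eif3l* one of 117 and 290 CPM and was read in 31.3% of the cells. In runs matched on genes detected the log2 fold change of *Eif3l* was 0.79 instead of 2.22. Of 58 ribosome biogenesis genes, 2 passed as higher and 0 as lower, with a median of 0.40. They were *Dkc1*, which modifies ribosomal RNA (log2 1.296 ± 0.53 SE), and *Nob1*, which trims it (1.61 ± 0.71 SE), read in 19.1% and 21.2% of the cells. Of 71 mitochondrial ribosomal protein genes, with a median log2 fold change of 0.27, 0 passed as higher and 2 as lower, *Mrpl35* and *Mrpl16*, read in 7.96% and 5.04% of the cells. Their medians were 0.184 and 0 CPM in the high groups and 9.44 and 20.3 CPM in the low groups. They passed the filter on low counts through the low groups, and nothing is read from their p. Of 6 tested snoRNA host genes none passed, while 5 had a positive fold change and the median log2 fold change was 0.64. Of 83 oxidative phosphorylation genes, 62 had a positive fold change and 7 were higher in all 6 mice, beside 3965 and 185 of all 8539 genes. Of the 83, *Cox4i1*, a subunit of cytochrome c oxidase, alone passed the unadjusted p (588 to 1032 CPM, log2 0.80 ± 0.20 SE, adjusted p = 0.0409 over the 695 genes, edgeR). Its log2 fold change was 0.31 and 0.34 in runs matched on genes detected and on total reads. Of 35 tested genes of mTORC1 and growth control, 1 passed as higher, *Foxo3* (log2 2.16 ± 0.96 SE), and 0 as lower. Of 36 proteasome genes, 1 passed, *Psmc5* (log2 2.11 ± 0.66 SE, read in 27.6% of the cells).

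Several heat shock and chaperone genes had lower levels in the cells with many ribosomal protein reads, although none passed edgeR's adjustment over all 8539 genes. Of 40 tested genes of the early response and cell isolation list, 11 passed the unadjusted p as lower and 0 as higher (over all genes 1.97% passed as lower). Of the 32 members read in at least 50% of the cells 10 passed as lower. Of the 608 named genes read that often that overlap no ribosomal protein gene, 7.24% did. The median log2 fold change of the list was -0.41, and 7 of the 40 were lower in all 6 mice (2.21% over all genes). Heat shock proteins and their co-chaperones made up 7 of the 11, and *Hspa1b*, *Hsp90aa1*, *Hsp90ab1* and *Hspe1* (log2 -0.98, -0.37, -0.21 and 0.57) did not pass. *Hsph1* (chromosome 5, 149614287 to 149636376), which recharges Hsp70 with nucleotide, had the smallest p of all 8539 genes. It had 198, 1776 and 2857 CPM as lowest, median and highest mouse of the low group and 59, 570 and 1626 CPM in the high group, a 2.76-fold difference (log2 -1.46 ± 0.21 SE, p = 4.9e-05, adjusted p = 0.418, edgeR). *Dnajb1*, a co-chaperone that hands clients to Hsp70, had 356, 3496 and 6119 CPM against 183, 910 and 2493 CPM (log2 -1.42 ± 0.26 SE, adjusted p = 0.0119 over the 695 genes, edgeR). *Hspa1a*, the inducible Hsp70, had a median of 2303 against 1014 CPM (log2 -1.28 ± 0.34 SE, adjusted p = 0.0413 over the 695 genes, edgeR). Levels of these genes also ranged widely between mice. *Hspa1a* stood at 401 CPM in the low group of Y7 and 140 CPM in that of Y8, against 2040 to 5170 CPM in the other 4 mice. *Hspb1*, a small heat shock protein, was lower in 6 of 6 mice (log2 -1.17 ± 0.35 SE), with the largest difference in O5. The other members that passed were the chaperones *Dnaja1* (log2 -0.70 ± 0.24 SE), *Hspa8* (-0.39 ± 0.14 SE) and *Hspa5* of the endoplasmic reticulum (-0.67 ± 0.23 SE), and the immediate early transcription factors *Fosb*, *Jund*, *Egr1* and *Nr4a1*, each lower in 5 of 6 mice, with log2 fold changes between -0.48 and -0.91. The share of cells with a read differed less than the level: *Dnajb1* was read in 60.01% of the cells of the high groups and 63.6% of the low groups (means of 6 mice). Between cells with neighbouring numbers of genes detected, the log2 fold change was -0.59 for *Hsph1*, -0.57 for *Dnajb1* and -0.64 for *Hspa1a*.

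The heat shock element GAANNTTC, which reads the same on both strands, is the core of the binding motif of the heat shock factors. It was searched in the 250 bases before the annotated start. It stood in 7.73% of 27025 genes and in 5 of the 8 heat shock and chaperone genes of the list with a sequence (*Hspa1a*, *Hspa1b*, *Hspb1*, *Dnaja1* and *Hspe1*), of 11 in all, again under 80%. A longer form with a further unit stood in 1 of these 8 genes and in 0.514% of all genes. Windows are shown for *Hspa1a* and *Hspb1*, which were lower, with the element in capitals. *Hsph1* and *Dnajb1*, also lower, had no sequence or no element, and the window of *Dnaja1* is not shown.
Hspa1a, chr17:34972242-34972271, minus strand: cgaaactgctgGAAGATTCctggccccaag
Hspb1, chr5:135887791-135887820, plus strand: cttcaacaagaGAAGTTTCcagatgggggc
The elements began 104 and 117 bases before the start of *Hspa1a* and *Hspb1*.

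The other named genes with lower levels were mostly members of no list. *Cp*, the copper-containing ferroxidase ceruloplasmin (chromosome 3, 19957054 to 20009145), had 663, 995 and 1227 CPM as lowest, median and highest mouse of the low group and 211, 371 and 688 CPM in the high group (log2 -1.31 ± 0.24 SE, adjusted p = 0.0119 over the 695 genes, edgeR). It was read in 58.3% of the cells of the high groups and 81.1% of the low groups. *Rnd3*, an antagonist of RhoA, had a median of 205 CPM in the high groups and 487 CPM in the low groups (log2 -1.21 ± 0.24 SE, adjusted p = 0.0119) and was read in 40.0% and 61.3% of the cells. *Ripk1*, a kinase downstream of the TNF receptor, had 249 and 615 CPM (log2 -1.07 ± 0.31 SE, adjusted p = 0.0445), and *Relb*, an NF-kB subunit, 139 and 285 CPM with no overlap of the ranges (56.6 to 192 and 230 to 413). *Pde4b*, which degrades cAMP, had 2413 and 4141 CPM (log2 -0.63 ± 0.15 SE, adjusted p = 0.0409). *Sqstm1*, the autophagy receptor p62, had 1914 and 3035 CPM with no overlap of the ranges and lay at the threshold (adjusted p = 0.0505). *Hmox1*, which degrades haem, had 191 and 584 CPM and was lower in 6 of 6 mice, but when cells were compared with neighbours in total reads its log2 fold change was 0.02 instead of -1.55. *Ikzf4* (log2 -1.58 ± 0.38 SE) and *Phf20l1* (-1.98 ± 0.56 SE), regulators of transcription, were read in 22% and 32.4% of the cells, and *Phf20l1* stood at 0.35 in runs matched on genes detected. Between cells with neighbouring total reads, the log2 fold change was -0.59 for *Cp*, -0.51 for *Rnd3* and -0.31 for *Sqstm1*. All adjusted p of this paragraph are from edgeR over the 695 genes.

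Of 38 tested actin and cytoskeleton genes, 5 passed the unadjusted p as lower, 0 as higher, and 6 were lower in all 6 mice (over all genes 1.97% and 2.21%), with a median log2 fold change of -0.32. All 5 were among the 23 members read in at least 50% of the cells, where 7.24% of the 608 named genes passed as lower. *Tuba1c*, an alpha tubulin, had a median of 293 CPM in the high and 568 CPM in the low groups (log2 -0.98 ± 0.26 SE, adjusted p = 0.0301 over the 695 genes, edgeR). *Cnn3* (log2 -0.55 ± 0.17 SE), *Tagln2* (-0.57 ± 0.20 SE) and *Actb* (-0.41 ± 0.15 SE), actin and its binding proteins, and the tubulin *Tubb6* (-0.49 ± 0.22 SE) made up the others. Of 34 extracellular matrix genes, 3 passed as lower and 0 as higher (over all genes 1.97% passed as lower), none of them read in 50% of the cells, with a median of -0.22: *Cyr61* (log2 -1.22 ± 0.38 SE), the basement membrane protein *Nid2* (-1.66 ± 0.53 SE) and *Thbs1* (-1.05 ± 0.40 SE). *Thbs1* was 0.03 when cells were compared with neighbours in genes detected, and its levels ranged between mice from 17.1 to 9621 CPM in the low group.

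The genes that define the muscle stem cell gave a mixed picture. *Pax7* was at a median of 743 CPM in the high and 754 CPM in the low groups. This level was higher in 3 of 6 mice (log2 -0.10 ± 0.21 SE), a difference within the spread of the mice. The share of cells with a *Pax7* read was lower in the high groups, at 85.02% against 94.2% (means of 6 mice). It was lower in every mouse except O1, where it was 88.9% in both groups. With limma on mean log2 values the log2 fold change was -1.02, which did not pass the adjusted threshold. The part of read depth in these differences was not tested. *Myf5*, a myogenic determination factor, was lower in 5 of 6 mice (log2 -0.996 ± 0.39 SE), and *Myod1*, the factor of activation, was higher in 5 of 6 (0.87 ± 0.30 SE). Neither passed the adjusted threshold. The value of *Myf5* was -0.31 between cells with neighbouring total reads, and that of *Myod1* was 0.03 between cells with neighbouring numbers of genes detected. *Msc*, the myogenic repressor musculin, was higher in 6 of 6 mice, with 17.3, 118 and 528 CPM as lowest, median and highest mouse of the low group and 300, 530 and 1100 CPM in the high group (log2 2.25 ± 0.50 SE), yet it was read in 28.2% and 26.5% of the cells, and its log2 fold change between cells with neighbouring numbers of genes detected was 0.16. *Cdh15*, the M-cadherin that anchors the cell to the fibre, was lower in 5 of 6 mice (log2 -0.97 ± 0.29 SE, adjusted p = 0.0544 over the 695 genes, edgeR). Of 36 tested genes of quiescence and niche signalling, 2 passed the unadjusted p as higher (*Foxo3* and *Odz4*) and 1 as lower (*Cdh15*). Over all genes 1.16% passed as higher and 1.97% as lower. In runs matched on genes detected *Odz4* stood at -0.090. Of 9 tested cell cycle genes, of 57 splicing genes and of 5 nuclear retained RNAs, none passed the unadjusted p over all genes, while the splicing gene *Snrpg* was called among the 695 genes. *Malat1* had a log2 fold change of -0.12 ± 0.15 SE and *Neat1* one of -0.39 ± 0.22 SE.

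The largest fold changes belonged to genes read in few cells. *Slc38a1*, a glutamine transporter, had 0 to 19.1 CPM in the low groups and 36.1 to 385 CPM in the high groups. It was read in 5.21% and 11.9% of the cells. Its median in the low groups was 0.728 CPM, so it passed the filter on low counts through the high groups. Nothing is read from its p. *Phgdh* and *Psat1*, enzymes of serine synthesis, were the only members of the 20 tested genes of the integrated stress response that passed the unadjusted p, with a median of 0 and 0.0685 CPM in the low and 56.2 and 71.1 CPM in the high groups. They were read in 7.96% and 6.90% of the cells. As they are near 0 in most low groups they passed the filter on low counts through the high groups, and nothing is read from their p. In runs matched on genes detected the log2 fold change of *Phgdh* was -0.053, and *Psat1* was at 0 CPM in the high group of O5. *Atf4*, the factor that drives this response, had a log2 fold change of -0.20 ± 0.19 SE.

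**Figure D5:**
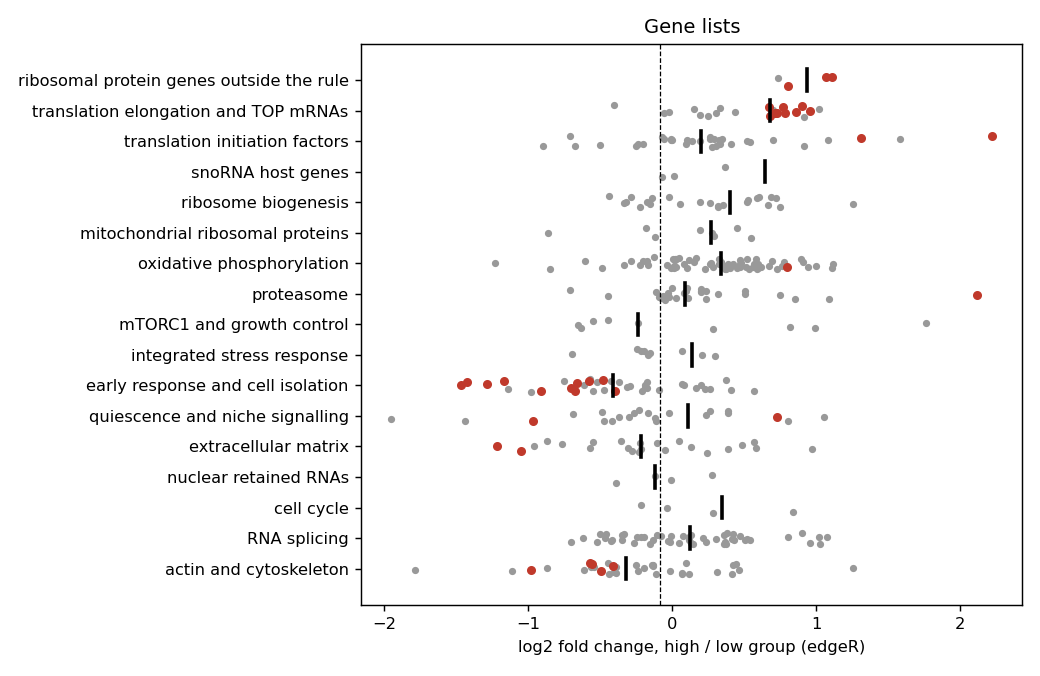
Log2 fold change between the high and the low group (edgeR, horizontal axis) of the members of 17 gene lists that were read in at least 25% of the cells. Red points passed an unadjusted p under 0.05, black bars are the median over all tested members of a list, and the dashed line is the median over all 8539 genes (-0.09); the median of the elongation factor and TOP list lies at 0.68 and that of the early response list at -0.41, with members on both sides of 0 in most lists.

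The comparison was made in mice of both ages. Lane 2 held both old mice and, of the young mice, only Y7, so age and lane cannot be told apart here. In edgeR's test of the difference between ages (old minus young) 0 of 8539 genes were called, and 321 (3.76%) passed the unadjusted p. The log2 fold change of *Rpsa* was 1.295 in old and 0.96 in young mice (unadjusted p = 0.402 for the difference, edgeR), and that of *Eef1a1* 0.76 and 0.64 (unadjusted p = 0.625, edgeR). *Dnajb1* was -2.11 in old and -1.07 in young mice, and *Myf5* -2.03 and -0.45 (both unadjusted p = 0.0445 for the difference, edgeR, which did not pass adjustment).

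The ribosomal protein genes have short mRNAs, with a median of 1094 bases for the longest annotated transcript beside 3491 bases over the tested genes. Short genes outside the share had a higher median fold change than longer ones. Over all tested genes with a length, the shortest 1942 (136 to 2208 bases) had a median log2 fold change of 0.05. Of these, 30 were higher and 30 lower at an unadjusted p under 0.05 (edgeR). The 3 longer sets had medians of -0.16, -0.18 and -0.09, with 17, 19 and 21 genes higher and 45, 44 and 34 lower. The next counts come from the fit over the 695 genes read in at least 50% of the cells. They cover its named genes that overlap no ribosomal protein gene. The shortest 147 (511 to 1996 bases) had a median log2 fold change of 0.08, with 19 of 147 genes higher and 9 lower at an unadjusted p under 0.05 (edgeR). The 3 sets of longer genes, of like size, had medians of -0.18, -0.16 and -0.10, with 5, 1 and 4 genes higher and 18, 15 and 8 lower. Sets of the same size cut by GC content had medians between -0.10 and -0.05. From the lowest to the highest GC content, 2, 9, 11 and 7 genes were higher and 9, 13, 7 and 21 lower. The part of transcript length, GC content, depth and genes detected in the differences between the groups was not tested.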

How the data were processed

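The authors sorted single Pax7-nGFP high cells, separated mRNA from DNA (scM&T-seq), amplified cDNA by Smart-seq2, aligned paired-end reads to GRCm38 with HiSat2 and counted them per gene in SeqMonk. The deposited table holds these raw counts for 25952 genes, without mitochondrial genes, in 377 cells kept by their filters. Neither annotation release nor strand setting is given in the sources used here, and genes that overlap or are near-identical remain uncertain. All columns were mapped to a sample and mouse. The mice Y2 and O8 of the labels were not analysed here, nor were the methylation data.

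Members and gene lists were chosen with earlier results of these data known. Counts were summed per mouse and group (12 sums). Library sizes and TMM factors came from genes outside the share, genes were filtered with filterByExpr, and edgeR 4.0.16 (quasi-likelihood test, mouse as block, Benjamini-Hochberg, threshold 0.05) was the main test, with DESeq2 1.42.0 and limma 3.58.1 in R 4.3.3 as alternatives. The pairing comes from the mouse: both groups are cells of the same animal. The p-values measure the spread between these 6 mice. The denominator of the share holds all reads of a cell, so other genes enter it. Measures with 1 value per mouse used exact permutation tests. The limit given for genes with no read covers counting error only. Values after ± are the SD over mice or the SE of the edgeR fit, as marked.

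The rule named, among called genes on one side in every mouse with at least 20 CPM and no pseudogene or model name, the 12 with the smallest p in each direction. As 0 were called, the genes are those the rule gives without the call, and are thus a choice made after the values were seen. It also named up to 4 members of each list (here those with an unadjusted p under 0.05), the *Pax7*, *Myf5* and *Myod1* genes, the ribosomal protein genes outside the rule, *Eef1a1*, *Eef2*, *Tpt1*, *Malat1* and *Neat1*. Other members are named to complete a count, or because they were called among genes read in at least 50% of the cells. Pseudogene and model transcripts of GENCODE M21 were compared with ribosomal protein transcripts by blastn 2.17.0 (at least 80% identity over 50% of their length). Of 8539 tested genes, 46 shared sequence, name or position with one, and 373 of the 863 with pseudogene or model names had no transcript to compare. Named genes were checked for overlap of position only, so *Rpl36al* was not set apart. Transcript lengths were found for 91.0% of tested genes. The set of genes read in at least 50% of the cells was added after the main result had been seen. The test was also run on simulated data with known fold changes, and the outcome is not given here. Single values of some list members are not reported here.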

Additional observations from a re-analysis of the deposited data

Results flagged for a closer look

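Of 55 values checked for a mouse far from the others, 3 had one. Chance alone flags about 1 in 20 such groups. The log2 ratio of the groups for *Sqstm1* was -1.17 in Y5 and between -0.66 and -0.35 in the other 5 mice. For *Hspb1* it was -3.21 in O5 and between -1.35 and -0.40 in the others, and without O5 the gene was still lower in every mouse. For *Pax7* it was -0.69 in Y5 and between -0.12 and 0.14 in the others.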

How the results depend on the processing

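The count of 0 called genes over all 8539 stayed 0 under every alternative fitted except DESeq2 (234), limma on mean log2 values (6) and the set read in at least 50% of the cells (51). In that set, DESeq2 called 111, the fit without the mouse as replicate block, which ignores the pairing, 0, a cut into 2 parts 25, thinned counts 14, runs of 3 cells matched on genes detected 2 and on total reads 16, lane 2 mice 0, lane 3 mice 0, young mice 6, old mice 0, pseudogene and model names left out 5, pseudogenes added to the share 25, and leaving out 1 mouse 2 to 27. Restricting mice leaves fewer samples; for the others the cause was not tested. DESeq2 called 306 genes for the difference between ages, 20 *Rps* genes in the cut by *Rpl* share and 22 *Rpl* genes in the reverse cut, and among genes read in at least 50% of the cells edgeR called 28 and 31.

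Genes detected per cell differed by -163 with a cut into 2 parts (past the threshold), by -236 to -135 with 1 mouse left out, and by 27.6 in runs matched on total reads. The log2 difference in reads per cell was -0.49 to -0.39 with 1 mouse left out. The share in old minus young mice was -0.24 without Y8 and -0.68 without O5 (range -0.68 to 0.78).

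Of 1082 fits of 52 named genes, 11 in 7 genes changed sign: *Hmox1* in runs matched on total reads (0.024); *Phf20l1* (0.35), *Phgdh* (-0.053), *Odz4* (-0.090), *Thbs1* (0.032) and *Pax7* (0.17) in runs matched on genes detected; *Pax7* also with a cut into 2 parts (0.038), lane 2 mice (0.029), old mice (0.074) and without Y5 (with 1 mouse left out it ranged from -0.14 to 0.0095); and *Malat1* in lane 2 mice (0.053). The cause of these changes of sign was not tested. A further 31 fits kept the sign and passed the adjusted threshold, which the main fit of the gene did not. Scaling over all genes moved the median log2 fold change by -0.02. Genes read in few cells limit what 12 sums can show.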
